A study of Mus musculus with 5 samples.

Results

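Peaks of the chromatin remodeller BRG1 were described at 8 mouse genes of macrophage cholesterol efflux and lipid sensing: the transporter genes Abca1 and Abcg1, the apolipoprotein gene Apoe, the nuclear receptor genes Nr1h3, Nr1h2, Pparg and Ppard, and Rxra, which encodes their common partner. The genes were listed by name, out of 21887 protein-coding genes on the nuclear chromosomes of the annotation. A peak counted for a gene when its summit lay in the gene body or within 20 kb of it. The series held 5 libraries, 1 each, from primary bone marrow-derived macrophages (BMDMs): BRG1 chromatin immunoprecipitation (ChIP-seq) of oxLDL-treated Baf60a KO cells (oxLDL KO), of oxLDL-treated WT cells (oxLDL WT), of Baf60a KO cells without oxLDL (KO), and of WT cells without oxLDL (WT), and an input library without antibody that was not analysed here. Baf60a, also called Smarcd1, encodes an accessory subunit of the SWI/SNF complexes whose ATPase is BRG1, and oxLDL is oxidised low-density lipoprotein, a cholesterol-rich particle that macrophages take up. The labels give no strain, sex, age or number of animals, no dose or duration of oxLDL, and do not say how the Baf60a allele was made. With 1 library per group no difference between groups could be tested, and no p-value is given for one.

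Macrophages cannot break down the sterol ring, so surplus cholesterol has to leave the cell. The liver X receptors LXRα (Nr1h3) and LXRβ (Nr1h2) sense oxysterols, pair with the retinoid X receptor RXRα (Rxra), and switch on Abca1, Abcg1 and Apoe. PPARγ (Pparg) and PPARδ (Ppard) sense fatty acids and their oxidised derivatives, also as partners of RXR, and PPARγ can raise Nr1h3 expression. SWI/SNF complexes move nucleosomes and so help such factors to reach DNA.

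The authors called peaks in each library separately and listed 4668 in oxLDL KO, 9907 in oxLDL WT, 139 in KO and 237 in WT. Because lists of such different length are compared, a missing peak means only that none was listed, not that BRG1 was absent. The macrophage label was checked against 8 marker genes (Spi1, Csf1r, Cd68, Mpeg1, Tyrobp, Fcer1g, Adgre1 and Itgam): a peak lay in the window of 7 of them in oxLDL KO, of 8 in oxLDL WT, of 1 in KO and of 1 in WT. Of 4 fibroblast genes 0 had a peak in any list. Of 4 neutrophil genes 0 had one in oxLDL KO and 2 in oxLDL WT. Of 4 lymphocyte genes, Cd79a had one in oxLDL KO and Cd4 had one in oxLDL WT. Such a window held a summit at 21.1% of all protein-coding genes in oxLDL KO and at 33.2% in oxLDL WT, and lists of 4 genes are too short to be read against these shares. A peak does not measure expression, and a library from a mixture of cells does not show which cells carried it.

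Peaks at these genes were listed in the oxLDL libraries only. A peak lay in the window of 6 of the 8 genes in oxLDL KO and of 6 in oxLDL WT, against 0 in KO and 0 in WT. Over the whole annotation this held for 21.1% of protein-coding genes in oxLDL KO, 33.2% in oxLDL WT, 0.553% in KO and 1.19% in WT, so that 0 of 8 is what the short untreated lists give at most genes. The genes here were long, with a median body of 64.5 kb against 17.2 kb for all protein-coding genes. Among genes of at least 50 kb the shares were 29.5% in oxLDL KO and 43.1% in oxLDL WT. The nearest peak of the untreated lists lay 87.0 kb from Nr1h3 in KO and 379 kb from Apoe in WT, and was farther away at every other pairing of gene and list.

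**Figure D1:**
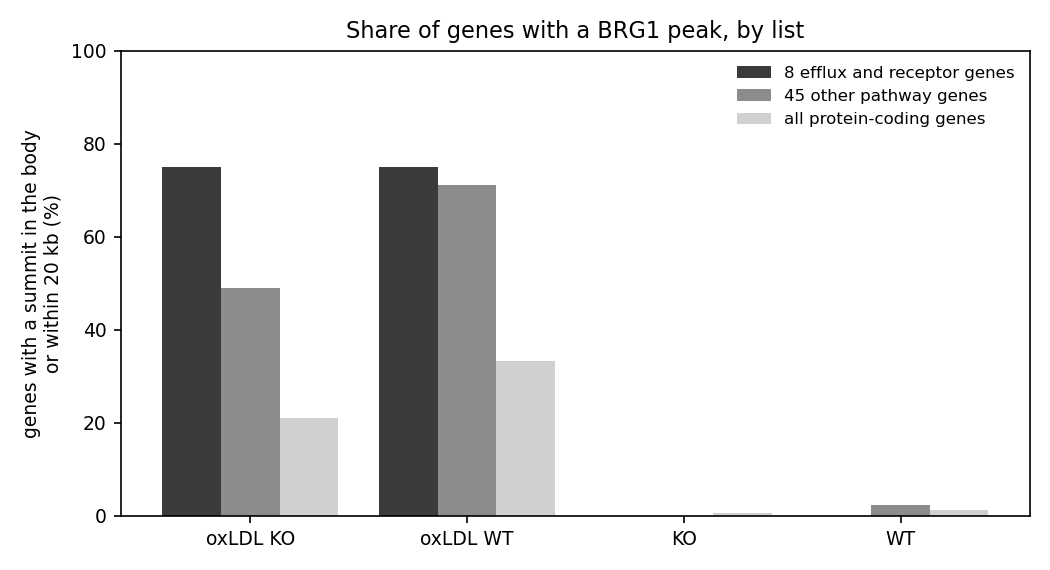
The share of genes (%) with a BRG1 summit in the body or within 20 kb is plotted for each of the 4 lists, for the 8 efflux and receptor genes, for 45 other genes of the pathway, and for all protein-coding genes. Both oxLDL lists have 6 of the 8 genes, against 21.1% of all genes in oxLDL KO and 33.2% in oxLDL WT, while in KO and WT 0 of the 8 have a peak.

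The windows held 10 peaks in oxLDL KO and 17 in oxLDL WT. Per megabase of window this was 12.2 peaks in oxLDL KO and 20.7 in oxLDL WT, against 2.86 and 6.09 over the windows of all protein-coding genes in oxLDL KO and in oxLDL WT. Of the 8 genes, 5 had peaks in both oxLDL lists (Abcg1, Nr1h3, Rxra, Pparg and Ppard), against 17.5% of all protein-coding genes. That share covers genes of all lengths and was not counted for long genes alone. Abca1 had peaks in oxLDL KO alone, Nr1h2 in oxLDL WT alone, and Apoe in neither.

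Shared genes were not always shared sites. In oxLDL KO, 5 of the 10 peaks shared at least 1 bp with a peak of oxLDL WT (50%, Wilson 95% interval 23.7 to 76.3), against 59.6% of all oxLDL KO peaks. In oxLDL WT, 5 of the 17 peaks had such a counterpart in oxLDL KO (29.4%, interval 13.3 to 53.1), against 27.3% of all oxLDL WT peaks. Both shares lay near the background of their list. The 5 matched sites were 3 around Nr1h3, 1 at the start of Pparg and 1 near the start of Rxra. Overlap with the untreated list of the same genotype was 0 of 10 in oxLDL KO, against 2.04% of all its peaks, and 0 of 17 in oxLDL WT, against 1.81%. These intervals cover counting error only.

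**Figure D2:**
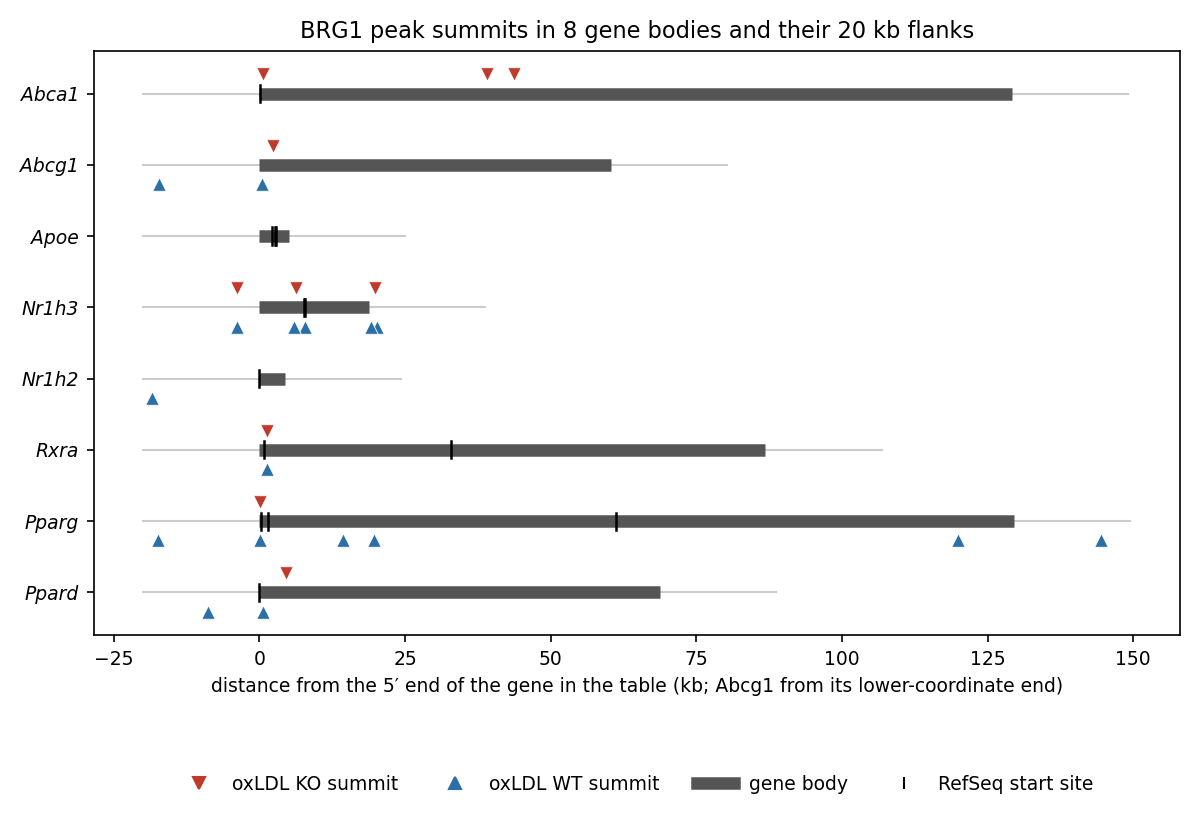
The map shows each gene body as a dark bar with its 20 kb flanks, drawn 5′ to 3′, with distance in kb from the 5′ gene end (for Abcg1 from its lower-coordinate end), oxLDL KO summits as triangles above and oxLDL WT summits below. At Abca1 the 3 summits are all from oxLDL KO, at Pparg 6 of 7 are from oxLDL WT, and at Nr1h3 and Rxra summits of both lists stand near each other.

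The heights of the 27 peaks were compared within their own lists. Fold enrichment is the authors' value for the pileup of fragments over the local background at the summit, and serves here to rank peaks within 1 list. It ran from 2.83 to 4.98 with a median of 4.04 in oxLDL KO, where all peaks had a median of 3.85. In oxLDL WT it ran from 2.71 to 6.09 with a median of 3.45, where all peaks had a median of 3.75. The summit pileups, recovered from the fold enrichment and the p-value, were 14 to 22 fragments in oxLDL KO and 12 to 28 in oxLDL WT. The authors' −log10 q reached 5 at 2 of the 10 oxLDL KO peaks and at 4 of the 17 oxLDL WT peaks. The share of all peaks that reached 5 was not counted. In oxLDL KO the −log10 q stayed below 2 at 1 of the 10 peaks, against 14.5% of all peaks of that list. In oxLDL WT this held for 4 of the 17, against 19.2%, so both counts lay near the share of their list. The local background of each peak, recovered in the same way, was at most 1.57 times the lowest of its list. It was not compared with the spread of background over all peaks.

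**Figure D3:**
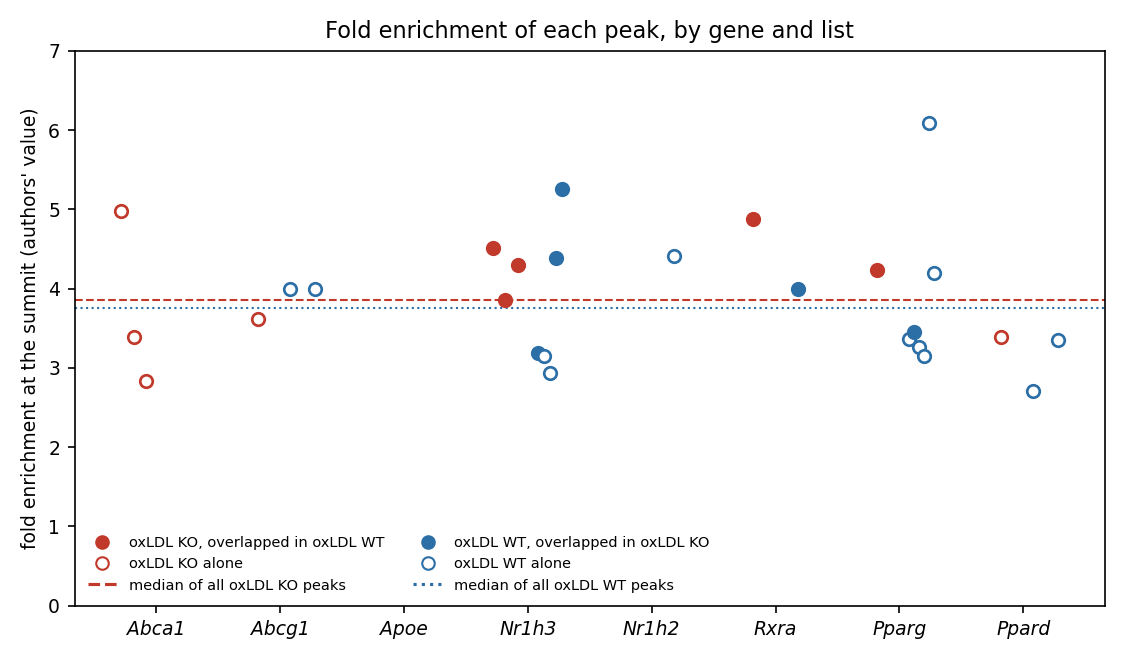
The fold enrichment of each peak (authors' value, no unit) is plotted by gene, oxLDL KO left of oxLDL WT, with filled circles for peaks overlapped in the other oxLDL list and open circles for those that are not; lines mark the median of each whole list. Most points lie between 3 and 5, with the highest point of oxLDL WT at Pparg (6.09) and the highest point of oxLDL KO at Abca1 (4.98).

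Abca1 encodes the transporter that loads cholesterol and phospholipid onto apolipoprotein A-I, and mouse Abca1 occupies positions 53030789 to 53159988 of chromosome 4, minus strand (mm10, GRCm38). All its peaks came from oxLDL KO. Closest to the start, a broad peak of 804 bp (53159082 to 53159885) had its summit at 53159451, 444 bp inside the gene from the start site at 53159895. It was among the weakest of the list, with a fold enrichment of 2.83 (percentile 4.54 of the oxLDL KO list), a −log10 q of 1.55 and a pileup of 17 over a background of 5.36 fragments. A pair of narrow peaks lay deep in the body. The first, with its summit at 53120934, 38961 bp from the start site, had a fold enrichment of 3.39 and a −log10 q of 2.001. The other, at 53116229 and 43666 bp from the start site, had 4.98 and 6.17, at percentile 90.2 of the list and with a pileup of 21. A count of 3 or more summits in the window was found at 2.18% of all protein-coding genes in oxLDL KO. This share covers genes of all lengths and was not matched to the long Abca1 window of 169.2 kb. In oxLDL WT the window was empty, and the nearest summit stood at 53187530, 27.5 kb beyond the 5′ end, with a fold enrichment of 3.78.

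The Abca1 promoter is shown because LXR and RXR are known to act on it through a pair of hexamers spaced by 4 bases. The window holds 250 bases before and 50 after the start site (chr4:53159846-53160145, minus strand, RefSeq on GRCm38.p6). The motifs searched, on both strands, were the direct repeats of AGGTCA spaced by 4 free bases (LXR with RXR) and by 1 (PPAR with RXR), AGGTCA alone, which is part of both, GAGGAAGT (PU.1), TGANTCA (AP-1), TTGCNNAA (C/EBP) and CACGTG. A match is a description of the letters and does not show binding. Capitals mark CACGTG, an E-box, and a match to this direct repeat (AGGTCA, 4 free bases, AGGTCA) with 3 mismatches in its 12 fixed letters.
Abca1: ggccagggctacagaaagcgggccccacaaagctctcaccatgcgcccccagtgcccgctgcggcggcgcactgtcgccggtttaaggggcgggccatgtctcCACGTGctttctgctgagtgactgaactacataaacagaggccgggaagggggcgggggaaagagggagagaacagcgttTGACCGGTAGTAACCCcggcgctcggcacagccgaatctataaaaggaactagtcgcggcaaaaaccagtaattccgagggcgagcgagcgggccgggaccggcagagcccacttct
The loose match spans bases -67 to -52 from the start site, and the E-box begins at base -147. Matches with up to 3 mismatches, a search added after the values were seen, were found in 21.9% of all 32851 promoter windows, and CACGTG in 7.15%, both strands searched. The oxLDL KO peak covered only the last 40 bases of this window, on the transcribed side, so that neither marked stretch lay under it.

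Abcg1 encodes the transporter that passes cholesterol to high-density lipoprotein (chromosome 17, 31057694 to 31117984). Its strand is not given in the annotation used. In oxLDL KO a peak of 234 bp had its summit at 31059960, inside the body and 2266 bp from the lower-coordinate end, with a fold enrichment of 3.62, a −log10 q of 2.51 and a pileup of 15. In oxLDL WT a peak of 733 bp had its summit at 31058088, 394 bp inside that same end, with 3.99, 3.99 and 18. These summits stood 1.87 kb apart and the peaks did not overlap. Another oxLDL WT peak of 625 bp lay in the flank, at 31040386 and 17308 bp outside the same end, with the same fold enrichment of 3.99. Equal values recur because the same whole pileup stands over the same library-wide background.

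Apoe encodes an apolipoprotein that macrophages secrete and that carries cholesterol away (chromosome 7, 19696244 to 19701310, minus strand). No list had a summit in its window of 45.1 kb, which also takes in Apoc1, Apoc4 and Tomm40. Matched peaks of both oxLDL lists stood just outside it. Their summits lay at 19669240 in oxLDL KO, with a fold enrichment of 4.07, and at 19669373 in oxLDL WT, with 4.62. These were 27 kb from Apoe in oxLDL KO and 26.9 kb in oxLDL WT, beyond Apoc2, and about 4 kb from the start of Clptm1, at 4210 and 4343 bp.

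Nr1h3, the LXRα gene, had the most matched sites in its window (chromosome 2, 91184061 to 91202829, minus strand). The window held 3 summits in oxLDL KO and 5 in oxLDL WT, counts reached by 2.18% of protein-coding genes in oxLDL KO and by 2.39% in oxLDL WT. Only 1 of these in oxLDL KO and 2 in oxLDL WT lay in the Nr1h3 body, and the others lay in neighbouring genes. Neighbours stand close on both sides: Madd, which encodes a Rab guanine nucleotide exchange factor, follows the 3′ end, and Acp2, a lysosomal acid phosphatase gene, overlaps the 5′ end. Upstream of the listed start sites at 91195116 and 91195035, an oxLDL KO peak had its summit at 91196463, 1347 bp before the start and nearer to the 5′ edge of Acp2, at 6349 bp, than to either end of the annotated Nr1h3 body. It had a fold enrichment of 3.85, a −log10 q of 3.05 and a pileup of 16. The oxLDL WT peak there, at 91196805 and 1689 bp before the start, had 4.38, 5.20 and 20. They overlapped by 107 bp, 30.4% of the shorter peak, and their summits stood 342 bp apart. This pair was the only one of the 5 that did not share at least 50% of the shorter peak.

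At the Nr1h3 start itself a peak was listed in oxLDL WT alone. Its summit at 91195066 lay 31 bp before the start site at 91195035, and it was weak, with a fold enrichment of 2.94 (percentile 9.93), a −log10 q of 1.45 and a pileup of 13. The start-site window is shown with the part under this peak in capitals (chr2:91194986-91195285, minus strand, RefSeq on GRCm38.p6).
Nr1h3: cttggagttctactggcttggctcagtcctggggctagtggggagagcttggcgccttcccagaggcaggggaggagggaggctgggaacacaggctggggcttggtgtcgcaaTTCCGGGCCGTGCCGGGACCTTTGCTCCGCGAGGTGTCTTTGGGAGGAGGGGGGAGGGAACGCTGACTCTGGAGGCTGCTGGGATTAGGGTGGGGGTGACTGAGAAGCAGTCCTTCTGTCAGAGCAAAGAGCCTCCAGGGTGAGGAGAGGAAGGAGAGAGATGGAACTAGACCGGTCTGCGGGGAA
The peak covered the last 186 of its 300 bases, with the start site among them. None of the 7 motifs was found as written in either listed Nr1h3 window.

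The closest match around Nr1h3, by distance between summits, lay in the body of Acp2, at 91206736 in oxLDL KO and 91206661 in oxLDL WT. These summits stood 75 bp apart, and the peaks shared 224 bp. The fold enrichment was 4.30 in oxLDL KO, with a −log10 q of 4.21 and a pileup of 18, and 5.25 in oxLDL WT, with 7.94 and 24, at percentile 93.6 of the oxLDL WT list. The site is 11620 bp in oxLDL KO and 11545 bp in oxLDL WT before the Nr1h3 start, and 3824 and 3749 bp into Acp2 from its own start. The other match lay beyond the 3′ end, where Madd begins. The oxLDL KO summit at 91183006 stood 41 bp from a Madd start site, with a fold enrichment of 4.51 and a −log10 q of 4.84. The oxLDL WT summit at 91182697 stood 350 bp from it, with 3.19 and 2.44. A further oxLDL WT peak at 91183732, 685 bp from the same Madd start and 329 bp outside Nr1h3, had 3.15 and 1.91. By position these peaks are start-site peaks of Madd that fall in the Nr1h3 window.

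Nr1h2, the LXRβ gene (chromosome 7, 44549616 to 44553968, minus strand), had no peak in its body or at its start at 44553965. Its window held 1 summit, in oxLDL WT, at 44572352, which was 18384 bp from Nr1h2 and 93 bp from an edge of Napsa, an aspartic protease gene. That peak had a fold enrichment of 4.41, a −log10 q of 5.20 and a pileup of 20. In oxLDL KO the nearest summit to Nr1h2 was 200 kb away.

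Rxra (chromosome 2, 27676445 to 27763319, plus strand) had 1 peak in each oxLDL list, at the same place. The oxLDL KO peak (27677642 to 27677893, 252 bp) had its summit at 27677787, 586 bp after the start site at 27677201. The oxLDL WT peak (27677632 to 27678506, 875 bp) had its summit at 27677811, 610 bp after it. The summits stood 24 bp apart and the oxLDL KO peak lay wholly inside the oxLDL WT peak. Its fold enrichment was 4.88 in oxLDL KO (percentile 88.6 of that list), with a −log10 q of 6.28 and a pileup of 22, the highest pileup of the 10. In oxLDL WT it was 3.99 (percentile 64.9), with 3.99 and 18. At the other listed start, 27709292, no list had a peak.

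Pparg (chromosome 6, 115360879 to 115490404, plus strand) had 1 summit in oxLDL KO and 6 in oxLDL WT. At least 1 summit was found in oxLDL KO at 21.1% of protein-coding genes, and at least 6 in oxLDL WT at 1.31%. These shares cover genes of all lengths and were not matched to the long Pparg window of 169.5 kb. The shared site was the first start of the gene. The oxLDL KO peak (115360859 to 115361421) had its summit at 115360979, 165 bp before the start site at 115361144, with a fold enrichment of 4.24, a −log10 q of 4.36 and a pileup of 19. The oxLDL WT peak (115360881 to 115361407) had its summit at 115360993, 151 bp before it, with 3.45, 2.90 and 17. The summits stood 14 bp apart, the closest of the 5 pairs. Both peaks covered the whole start-site window, which is shown for that reason (chr6:115360894-115361193, plus strand, RefSeq on GRCm38.p6), with AGGTCA in capitals.
Pparg: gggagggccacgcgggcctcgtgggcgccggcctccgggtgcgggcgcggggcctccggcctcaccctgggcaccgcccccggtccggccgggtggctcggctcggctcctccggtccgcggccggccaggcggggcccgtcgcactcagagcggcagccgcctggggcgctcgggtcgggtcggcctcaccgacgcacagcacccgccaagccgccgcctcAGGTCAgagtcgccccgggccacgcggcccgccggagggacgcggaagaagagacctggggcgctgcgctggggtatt
Of its bases 80.3% are G or C, against a median of 52.7% over all promoter windows. Windows under a peak were GC-rich in general, with medians of 69.7% in oxLDL KO and 67.3% in oxLDL WT. The single AGGTCA begins at base -28 from the start site, and this hexamer was found in 16.3% of all windows. The exact repeats were rarer, in 0.0152% of all windows for the spacing by 4 and in 0.0396% for that by 1, and in 0 of the 13 windows of the 7 genes with a listed start.

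The other 5 Pparg peaks were in oxLDL WT alone. The highest of all 27, a peak of 1353 bp (115479946 to 115481298), had its summit at 115480729 in the body, 9675 bp before the 3′ end. Its fold enrichment was 6.09 (percentile 97.5, rank 228 of 9907), its −log10 q 11.07 and its pileup 28. The nearest oxLDL KO summit was 120 kb away. In the first part of the gene, summits at 115375237 and 115380540 had weak values, with fold enrichments of 3.26 and 3.15 and −log10 q values of 2.39 and 1.91. In the flanks, the summit at 115343490, 17389 bp before the gene, had 3.36 and 2.39, and that at 115505387, 14983 bp after it, had 4.20 and 4.59. None of these lay at the internal start sites at 115362349 and 115422066, the downstream one of which is the start known for the adipocyte isoform PPARγ2.

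Ppard (chromosome 17, 28232754 to 28301469, plus strand) had peaks in both oxLDL lists at different sites. In oxLDL KO the summit at 28237378, 4624 bp into the gene, had a fold enrichment of 3.39, a −log10 q of 2.001 and a pileup of 14. In oxLDL WT the summit at 28233405, 651 bp into the gene, had 3.35, 2.90 and 18, and stood 3.97 kb from the oxLDL KO one. Another oxLDL WT summit at 28223862 lay 8892 bp before the Ppard start and inside Def6, a gene for a guanine nucleotide exchange factor. With a fold enrichment of 2.71 and a −log10 q of 1.03 it was the weakest of the 17, at percentile 3.81.

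Peaks at transcription starts were listed for 5 of the genes in at least 1 oxLDL list. Of the 7 genes with a listed start, 3 had a summit within 1 kb of one in oxLDL KO (Abca1, Rxra and Pparg) and 4 in oxLDL WT (Nr1h3, Rxra, Pparg and Ppard). The shares for every protein-coding gene with a listed start were 9.84% in oxLDL KO and 16.3% in oxLDL WT. Counted instead within 1 kb of either end of the gene, 2 of the 8 genes had a peak in oxLDL KO and 4 in oxLDL WT, against 8.76% of all genes in oxLDL KO and 14.9% in oxLDL WT. The 4 in oxLDL WT include Nr1h3 through the peak near the Madd start and Abcg1, which has no listed start.

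Of the 17 oxLDL WT peaks, 8 had a fold enrichment above the median of their list. The oxLDL WT list was then cut from 9907 to the 4668 peaks with the highest −log10 p, as many as oxLDL KO holds. This left 8 of the 17 peaks, a share near that kept over the whole list. Of the 6 Pparg peaks 2 were left, of the 5 at Nr1h3 2, and of the 2 at Ppard 0, while both at Abcg1 and the ones at Nr1h2 and Rxra were kept. With equal list lengths the windows held 10 peaks in oxLDL KO and 8 in oxLDL WT. The oxLDL WT peaks at the Pparg start and at 91182697 near Madd were among those removed, so that 3 of the 5 matched sites were left. For Abca1 the cut decides nothing, because the full oxLDL WT list already held 0 peaks there and shortening it could not add any.

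**Figure D4:**
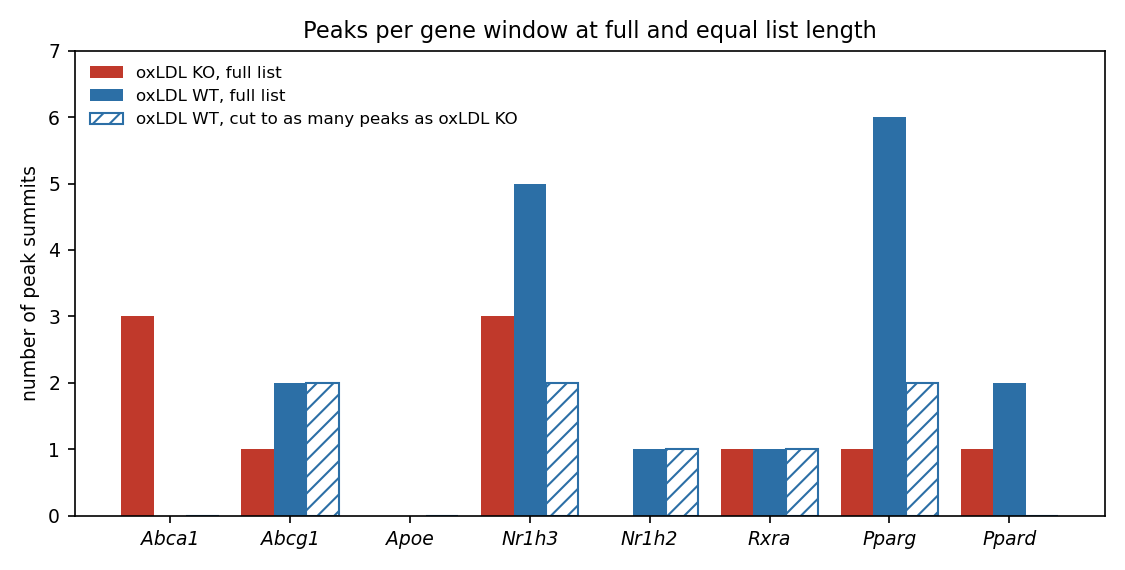
The number of peak summits in each gene window is shown for oxLDL KO and oxLDL WT, and for oxLDL WT cut to as many peaks as oxLDL KO has (hatched). The Pparg bar of oxLDL WT drops to 2 after the cut and the Nr1h3 bar also to 2. Abca1 has 3 peaks in oxLDL KO and 0 in the full oxLDL WT list, a count that the cut could not change.

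Around these genes, 45 others of the pathway were counted in the same way: transporters, LXR and PPAR targets, other nuclear receptors, and coregulators. A summit lay in the window of 22 of them in oxLDL KO (48.9%), of 32 in oxLDL WT (71.1%), of 0 in KO and of 1 in WT, the retinoic acid receptor gene Rara. Among all protein-coding genes these windows held a summit at 21.1% in oxLDL KO, 33.2% in oxLDL WT, 0.553% in KO and 1.19% in WT. Among genes of at least 50 kb the shares were 29.5% in oxLDL KO and 43.1% in oxLDL WT. The lengths of the 45 genes were not compared with those of all genes, and the list was chosen with earlier results of these data known. Whether the higher shares go beyond gene length and this choice was not tested. Neighbours such as Apoc2 and Apoc4 share the same peaks. All 22 in oxLDL KO were also among the 32 of oxLDL WT. The 13 with a peak in neither oxLDL list included Srebf1, Scd1, Ch25h, Angptl4, Abcg5 and Abcg8. The corepressor gene Ncor1, whose product silences LXR and PPAR targets, had gene-end peaks in both. The highest fold enrichment in its window was 4.49 in oxLDL KO (summit 62457547) and 4.81 in oxLDL WT (summit 62470526), at different sites.

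Among the pathway genes with peaks in both oxLDL lists, the highest value was at Cpt1a, which encodes the carnitine palmitoyltransferase of fatty acid oxidation, a PPAR target. Overlapping peaks in its body had a fold enrichment of 7.24 in oxLDL KO and 8.55 in oxLDL WT. In the window of Pltp, the phospholipid transfer protein gene and an LXR target, the highest values were 4.30 in oxLDL KO and 6.93 in oxLDL WT, at different sites 9.52 and 5.17 kb outside the gene. Rara followed with 4.88 in oxLDL KO and 6.72 in oxLDL WT, at different sites in the body. At Abca7, a transporter gene related to Abca1, overlapping peaks 8.99 and 8.57 kb outside the gene had 6.34 in oxLDL KO and 3.57 in oxLDL WT. Of the 10 genes with a peak in oxLDL WT alone, Ncoa3, a coactivator gene, had 5.67, and Cd36, the scavenger receptor gene, 5.25. Soat1, whose product esterifies cholesterol for storage, had 5.18, and Hdac3, a partner of the corepressors, 5.04. The Ncoa3 and Hdac3 summits lay 9.72 and 10.8 kb outside the gene.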

How the data were processed

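BRG1 ChIP-seq was made from BMDMs with an enzymatic chromatin kit and the ab110641 antibody, per the labels' protocols. Per the submitters' processing notes the tools were MACS3, Bowtie2, Trimmomatic 0.33 and bcl2fastq 2.17, on mm10; parameters, and the use of the input as a control, are not stated there. The authors deposited 1 peak list per library. Deposited columns are a score (a whole number, made from the −log10 q), the fold enrichment (a ratio at the summit), −log10 p-values, −log10 q-values and summit offsets. All deposited peaks were used. Depth per library is not known from peak lists. Pileup and background were solved from fold enrichment and p, taking a pseudocount of 1 and a Poisson tail. The pileup came out whole, within 2% of a step, for 99.96% of oxLDL KO and 99.99% of oxLDL WT peaks. Gene positions and promoter windows came from RefSeq tables on GRCm38.p6, the assembly of mm10, without exons. All 8 genes matched by symbol, and 7 had promoter windows. Overlap meant at least 1 bp. Groups came from the sample titles. Python 3.11.15 with pandas 2.3.3 and scipy 1.17.1 was used, and window counts, matches and pileups were tested on simulated data. Genes, lists and motifs were chosen with earlier results of these data known. All peaks of the 8 genes are named, with a neighbour where its end or body lies closer to the summit, except for an item that is not reported here; of the wider list, the 4 genes with the highest fold enrichment in both oxLDL lists and the 4 in a single one are named by rule, and Ncor1 and the genes without peaks were chosen after their values were seen. Alternatives were limits on q and p, equal list lengths, other windows, stricter overlap, and other gene-end distances.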

Additional observations from a re-analysis of the deposited data

How the results depend on the processing

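No paired analysis was possible because each group has 1 library, and for the same reason no replicate could be left out. Of 50 alternative values with a main count above 0, 39 stayed within 1.5 times it; the other 45 had a main count of 0, most of which a stricter limit cannot change, and say nothing about stability. With oxLDL WT cut to the length of oxLDL KO, the windows held 8 oxLDL WT peaks in place of 17, matched sites fell to 3 in each direction, and genes with a gene-end peak in oxLDL WT numbered 1 in place of 4. With summits within 200 bp as the rule for a match, 3 sites matched in each direction in place of 5. Genes with a gene-end peak in oxLDL KO, 2 as reported, numbered 1 at a −log10 q of at least 2 and 1 at a common −log10 p limit of 5.33, since the Abca1 start peak was lost, and 4 with gene ends within 2 kb. The single pathway gene with a WT peak dropped to 0 at a −log10 q of at least 2 and with windows of 5 kb. In both oxLDL lists, the number of the 8 genes with a peak stayed within 1.5 times under every alternative run. Counting start sites in place of gene ends was chosen after seeing the data. Pileups of 12 to 28 fragments limit every presence call. Without replicates, differences in antibody yield, depth and number of cells between libraries cannot be told apart from genotype and treatment.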

Other observations

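Between 20 and 100 kb from the 8 genes, 7 peaks were listed in oxLDL KO and 15 in oxLDL WT, against 1 in KO and 0 in WT. Most stood at other genes. On the 3′ side of Nr1h3, 4 oxLDL KO and 4 oxLDL WT summits lay in Spi1, which encodes the macrophage factor PU.1, and each overlapped a peak of the other list. The single untreated peak was also there, in KO, with its summit at 91097037, 87.0 kb from Nr1h3, a fold enrichment of 3.71 and a −log10 q of 2.11. It overlapped peaks of both oxLDL lists, with fold enrichments of 4.67 in oxLDL KO (summit 91097186) and 4.58 in oxLDL WT (summit 91096914). The WT list had no peak there.

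Near Ppard, overlapping peaks at the start of Def6 had fold enrichments of 2.97 in oxLDL KO and 4.38 in oxLDL WT. Beyond Pparg, 3 further oxLDL WT peaks were listed at 28.9, 38.9 and 77.0 kb from the gene, none with an oxLDL KO counterpart, and the nearest of them stood 163 bp from the start of the long noncoding RNA gene Gm36301, with a fold enrichment of 4.38.

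Near Apoe, an oxLDL WT peak lay in Relb, an NF-kB subunit gene, 67.0 kb away, with a fold enrichment of 4.83, and an oxLDL KO peak lay 291 bp from the start of Clptm1 with 4.49.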
